A study of Mus musculus with 4 samples.

Results

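Lcn2, Saa3, A2m and Hp encode secreted proteins of the acute phase response, the change in protein output that follows tissue injury or inflammation. The 4 genes were chosen from 24783 genes of a mouse retina and choroid count matrix because an earlier look at the same libraries had shown high values for such genes after injury. All their levels and ratios below are therefore a description. For each gene, unique molecular identifiers (UMIs, 1 per captured transcript) were summed over the cells of each cell class and library.

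Retina and choroid with sclera of wild-type mice were profiled by droplet single-cell RNA sequencing, with 1 library per group. The groups were young control and young CNV, from mice of 6 to 8 weeks, and aged control and aged CNV, from mice older than 18 months. Controls had no lesion, and CNV libraries came 3 days after laser burns that break Bruch's membrane and induce choroidal neovascularisation (CNV). In all groups rods had been depleted from the retina with anti-CD73 before the tissues were mixed, and the number of pooled animals is not stated in the sources used here. The design compares both ages with and without lesions and asks which immune cells enter the tissue.

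In the acute phase response, interleukin 6 family cytokines acting through STAT3, and interleukin 1 and tumour necrosis factor acting through NF-kB, raise transcription of secreted proteins in liver and in local tissue. Lcn2 (lipocalin 2) binds bacterial iron carriers and is made by epithelia, neutrophils and reactive glia. Saa3 is an inducible serum amyloid A made mainly outside the liver, A2m (alpha-2-macroglobulin) traps proteases, and Hp (haptoglobin) binds free haemoglobin. In the eye, Müller glia span the retina and react to injury, and the retinal pigment epithelium (RPE) separates the retina from the choroid.

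On the mouse build GRCm38, RefSeq places Lcn2 at chr2:32384637-32387739 on the minus strand and Saa3 at chr7:46711998-46719615 on the minus strand. A2m lies at chr6:121636165-121679238 on the plus strand, and Hp at chr8:109575128-109579172 on the minus strand. Proximal promoters were sought for all 4 genes. RefSeq sequences (GRCm38.p6, 250 bases before to 50 bases after the start) were found for 2 of them, Lcn2 and Saa3, and these are shown. Both genes were near 0 in most cells of the young control library and reached their highest class levels in the aged libraries. Capitals mark matches, on either strand, to the C/EBP pattern TTNNGNAA (TTNCNNAA on the other strand) or the NF-kB pattern, GGG and CC with any 5 bases between them. The Lcn2 window is chr2:32387690-32387989 and the Saa3 window chr7:46715627-46715926, both on the minus strand and written 5′ to 3′. The Lcn2 window lies at the end of the gene given above, while the Saa3 window lies inside the Saa3 span, around a transcript start within it and not at its outer end.
Lcn2: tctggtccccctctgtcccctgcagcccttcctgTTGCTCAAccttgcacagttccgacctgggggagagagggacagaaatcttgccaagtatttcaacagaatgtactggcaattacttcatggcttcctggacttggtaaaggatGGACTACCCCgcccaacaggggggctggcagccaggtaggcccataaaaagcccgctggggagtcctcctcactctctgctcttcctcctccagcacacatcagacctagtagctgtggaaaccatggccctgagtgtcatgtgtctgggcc
Saa3: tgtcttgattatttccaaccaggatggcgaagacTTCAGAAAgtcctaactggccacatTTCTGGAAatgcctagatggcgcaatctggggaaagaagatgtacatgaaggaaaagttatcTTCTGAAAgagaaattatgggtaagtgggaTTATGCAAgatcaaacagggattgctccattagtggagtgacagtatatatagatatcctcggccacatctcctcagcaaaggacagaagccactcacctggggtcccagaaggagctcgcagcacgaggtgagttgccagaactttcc
Counted from 1 at the 5′ end, the Lcn2 window held 1 C/EBP match at bases 35 to 42 and 1 NF-kB match at bases 149 to 158. The Saa3 window held 4 C/EBP matches, beginning at bases 35, 60, 122 and 152, and no NF-kB match. Of 32851 promoter windows of this length, 40.7% held a C/EBP match, 1.16% held at least 4 and 50.8% held an NF-kB match. Neither window held the STAT pattern TTCNNNGAA, found in 8.3% of windows, or the TATA pattern TATAAA, read on both strands and found in 13.6%. A match is a string of letters, not a shown binding site.

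The libraries held 36701 cells, of which 35601 remained after predicted doublets were removed. Library totals ranged from 50848238 to 111908519 UMIs, and median UMIs per cell from 2593 in young control to 7223 in young CNV, so young control was the shallowest per cell. Clustering without the 4 genes gave 63 clusters, of which 12 stayed unnamed. Classes are called after their marker genes ("Müller-glia-like"), and 124 cell barcodes occurred in more than 1 library. Levels are counts per 1000000 UMIs of a class (CPM) with exact 95% Poisson intervals, and ratios carry exact 95% binomial intervals. With 1 library per group nothing was tested, and all intervals cover counting error only. They leave out differences between animals and between the cells of a library, so they are too narrow where few cells hold most UMIs. UMIs per cell do not separate more transcripts per cell from more transcribing cells, so shares of cells with a UMI are given too.

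By its mean over the 4 libraries, Lcn2 was highest in Müller-glia-like cells among the classes with enough cells in each library. In young control it was higher in other classes, among them endothelial-like cells (24.3 CPM) and surface-epithelium-like cells. Its level in Müller-glia-like cells was 8.05 CPM (4.98 to 12.3) in young control and 370.1 CPM (341 to 401) in young CNV. In the aged control it was 67.8 CPM (58.5 to 78.1), and in aged CNV 1574 CPM (1532 to 1617). These levels rest on 21, 590, 190 and 5191 UMIs in 338, 160, 264 and 302 cells. Both CNV libraries were above both controls, and within each condition the aged library was above the young one. The ratio after laser was 46.0 (29.8 to 74.8) for young mice and 23.2 (20.1 to 27.0) for aged mice. The ratio of aged to young was 8.42 (5.35 to 13.9) in controls and 4.25 (3.91 to 4.64) after laser.

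The Lcn2 UMIs of Müller-glia-like cells sat in a minority of cells. In young control 2 of 338 cells had a UMI, and 1 of them held 20 of the 21 UMIs. In young CNV 16 of 160 cells had a UMI, in aged control 14 of 264 and in aged CNV 93 of 302, or 0.592%, 10.0%, 5.30% and 30.8%. The highest single cell held 194 UMIs in young CNV, 91 in the aged control and 716 in aged CNV. In aged CNV the next cells held 617, 400, 334 and 282 UMIs, while 17 cells held 1 UMI each. Lcn2 thus ranged in that library from no UMI in 209 cells to 716 in 1. Without the highest cell of each library the levels were 0.386, 251, 35.5 and 1363 CPM, in the same order of libraries, and the young control level rests on 1 UMI. The laser ratio without those cells was 650.5 in young and 38.5 in aged mice, and the age ratio in controls was 91.9. With cells picked by their own marker UMIs in place of clusters, the young laser ratio was 15.2 and the age ratio in controls 2.76.

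To equal the depth, cells were thinned to 1000 UMIs and cells with fewer were left out. This kept 326, 158, 260 and 293 Müller-glia-like cells of the 4 libraries in the order above, and 2806, 2478, 1146 and 685 of 3600, 2735, 1197 and 747 rod-like cells. The thinned share of Müller-glia-like cells with Lcn2 was 0.307% in young control, 5.06% in young CNV, 1.54% in the aged control and 18.8% in aged CNV. Rod-like cells, which should lack the gene, give the free RNA background. Their thinned shares were 0.178%, 0.161%, 0.349% and 1.02% in the same order, and 0.333%, 0.512%, 0.668% and 3.21% without thinning. Median depth was 1724 to 3308 UMIs in rod-like cells and 8098.5 to 10498 in Müller-glia-like cells. The shares in both CNV libraries lay well above the rod-like background, and the share in young control was near it. The level ratios of aged to young after thinning were 17.6 in controls and 6.76 after laser.

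Müller-glia-like cells detected all 11 of their own markers in each library. Neutrophils carry Lcn2 in their granules, and 3, 5, 6 and 7 of 10 neutrophil markers were detected in the Müller-glia-like cells of young control, young CNV and the aged control and CNV libraries. Their summed level was 10.7, 11.3, 13.2 and 37.9 CPM, against 20600 to 86070 CPM in neutrophil-like cells, with Cxcr2, Ly6g and Mmp8 at 0 in aged CNV. Macrophage markers summed to 60.2, 270, 68.9 and 132 CPM and rod markers to 1555, 583, 975 and 1171 CPM, and their part in the Lcn2 levels was not tested. Müller-glia-like cells held 2.35%, 39.5%, 22.8% and 56.3% of each library's Lcn2 UMIs. Over all cells Lcn2 was at 13.4, 13.9, 17.5 and 143 CPM, so the young libraries had like totals from different cell classes.

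**Figure D1:**
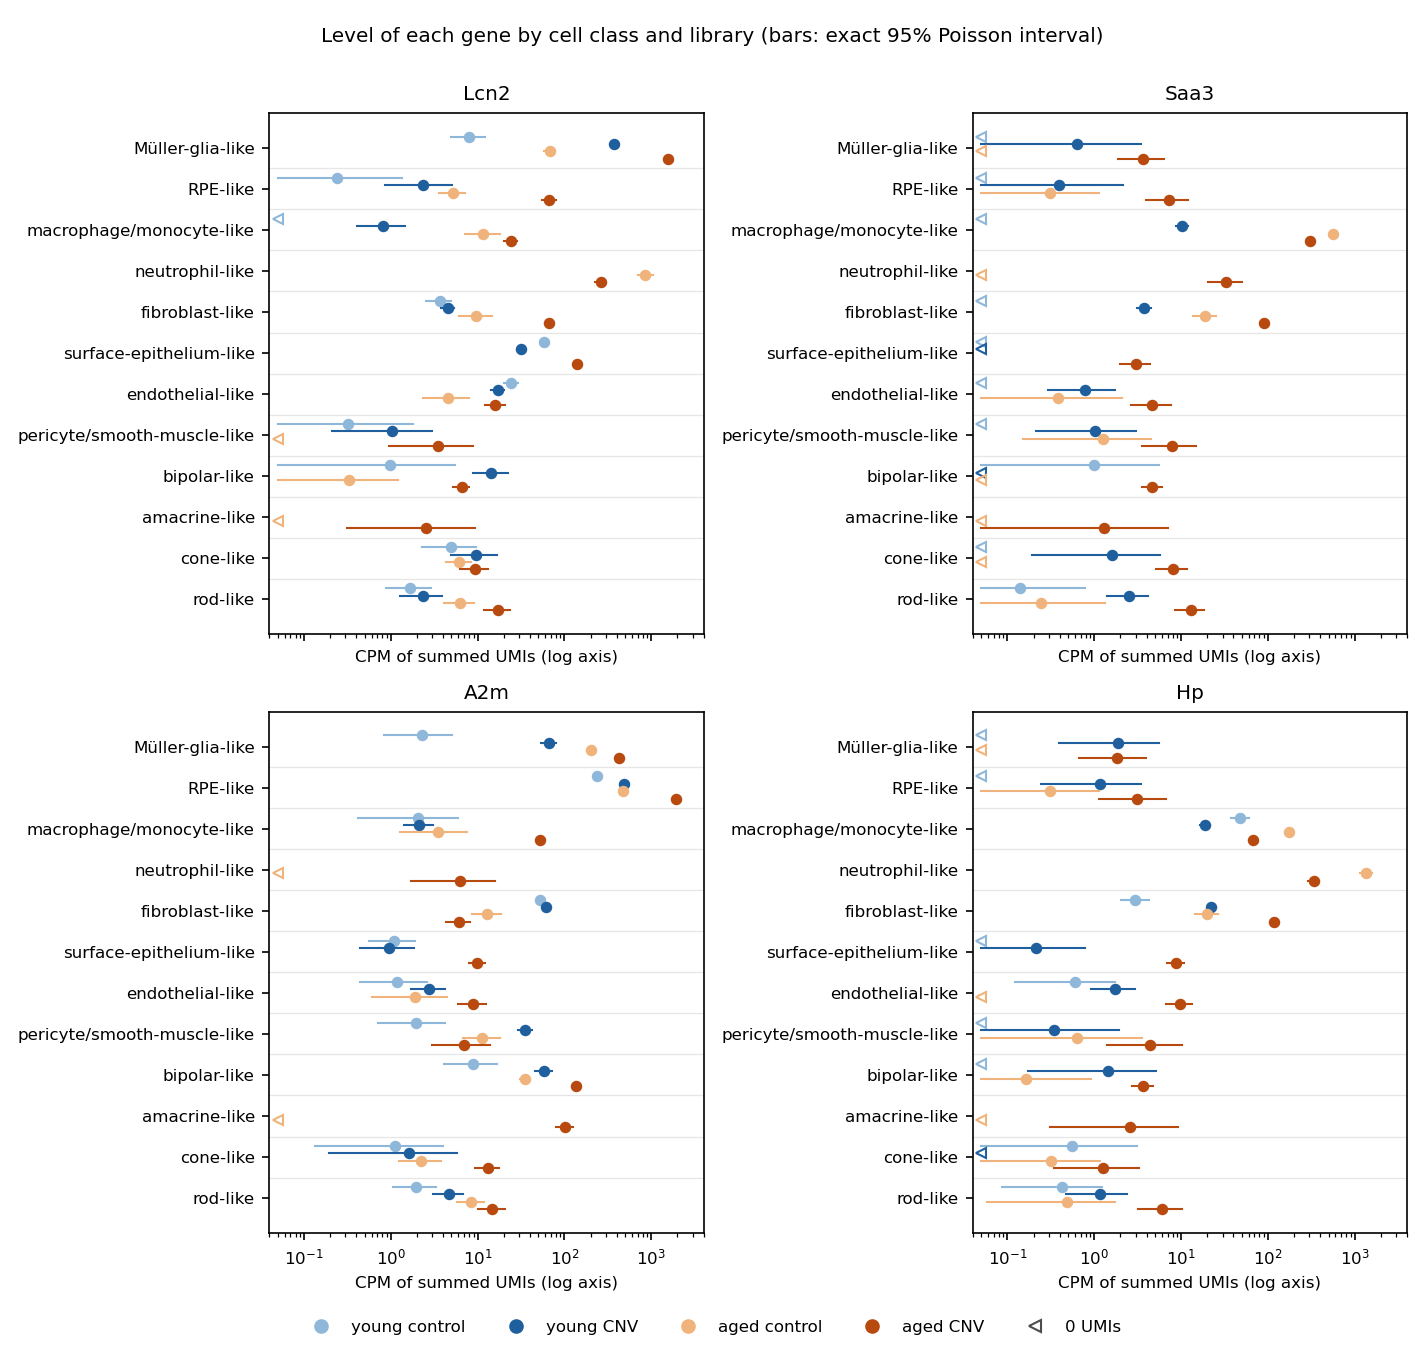
CPM of summed UMIs (log axis) of Lcn2, Saa3, A2m and Hp by cell class, 1 point per library, with exact 95% Poisson intervals and open triangles for 0 UMIs; bars that pass the axis edge run off it. Lcn2 peaks at 1574 CPM in Müller-glia-like and A2m at 1905 CPM in RPE-like cells of aged CNV, while Saa3 and Hp are highest in myeloid classes.

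In the young control library 71.9% of Lcn2 UMIs lay in surface-epithelium-like cells, which come with the outer eye. Their level was 58.6 CPM in young control, 31.8 CPM in young CNV, 37.1 CPM in aged control (30 cells) and 140.3 CPM in aged CNV. The share of these cells with a UMI was 33.6%, 24.1%, 43.3% and 60.3%. Lcn2 was lower after laser in young mice (ratio 0.542), and after laser it was 4.42-fold higher in aged than in young mice. The ratio after laser in aged mice was not computed because aged control held under 50 of these cells.

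Neutrophil-like cells were numerous enough in the aged libraries only. Lcn2 was at 858 CPM in 28 cells of aged control, 64.3% of them with a UMI, and at 263 CPM in 204 cells of aged CNV, 18.1% of them with a UMI. The class level was thus 0.306 of the control level after laser, but different clusters made up the class. A cluster led by S100a9 and Retnlg was 92.9% of neutrophil-like cells in aged control and 10.3% in aged CNV, and one led by Il1r2 and S100a8 was 7.14% and 89.7%. Within the S100a9 and Retnlg cluster Lcn2 was at 915 CPM in 26 control cells and 1429 CPM in 21 CNV cells, a ratio of 1.56. In the Il1r2 and S100a8 cluster it was at 92.6 CPM in 183 aged CNV cells.

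Among the other classes, Lcn2 in RPE-like cells was at 0.240 CPM in young control, 2.33 CPM in young CNV, 5.16 CPM in the aged control and 66.6 CPM in aged CNV. In aged control 27 of the 33 UMIs were in 1 cell. The aged laser ratio there was 12.9. Fibroblast-like cells had 3.64, 4.52, 9.71 and 65.9 CPM, with an aged laser ratio of 6.78 and an aged to young ratio of 14.6 after laser. Endothelial-like cells differed from this order: Lcn2 was at 24.3, 17.0, 4.55 and 16.1 CPM, highest in young control, with laser ratios of 0.702 in young and 3.53 in aged mice.

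Several unnamed clusters also carried Lcn2. A cluster led by Adamtsl3 and Chil1 was at 0.857, 1.52, 49.3 and 39.2 CPM and held 37.2% of the Lcn2 UMIs of aged control. A cluster led by Crhbp and Optc was at 265 CPM in 47 cells of young CNV. A low-depth cluster led by Lcn2 and Gfap held 1036 UMIs in aged CNV, 997 of them in 1 of 27 cells, which is 11.2% of that library's Lcn2.

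A2m was highest in RPE-like cells, which detected all 10 of their own markers in each library. The level was 240.0 CPM (225 to 255) in young control, 484 CPM (457 to 511) in young CNV, 473 CPM (456 to 490) in the aged control and 1905 CPM (1844 to 1967) in aged CNV. Young CNV and aged control could not be told apart by their counting intervals, young control was lowest and aged CNV highest. The UMIs numbered 999, 1244, 3025 and 3690 in 482, 334, 1028 and 317 cells. The ratio of CNV to control was 2.02 (1.85 to 2.19) for young mice and 4.03 (3.84 to 4.23) for aged ones. The ratio of aged to young was 1.97 (1.83 to 2.12) in controls and 3.94 (3.69 to 4.20) after laser. RPE-like cells held 45.6%, 28.8%, 60.8% and 42.8% of each library's A2m.

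Unlike Lcn2, A2m was spread over most cells of its leading class. A UMI was found in 70.1% of the RPE-like cells of young control, 70.4% of those in young CNV, 76.8% in the aged control and 88.3% in aged CNV. After thinning, which kept 446, 298, 984 and 279 cells, the shares were 23.5%, 35.6%, 35.8% and 68.8%. The highest cell held 19, 87, 35 and 207 UMIs, so no single cell made up more than a small part of the sum. Rod-like cells had thinned shares of 0.214%, 0.444%, 0.611% and 1.17%, and 0.333%, 0.804%, 2.09% and 3.08% without thinning. Median UMIs of RPE-like cells were 6915, 5060, 4849.5 and 4199. Macrophage markers in RPE-like cells summed to 166, 635, 262 and 282 CPM, and their part in the A2m levels was not tested.

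Müller-glia-like cells were the second class for A2m. The level was 2.30 CPM in young control, 65.9 CPM in young CNV, 205 CPM in the aged control and 422 CPM in aged CNV, from 6, 105, 574 and 1391 UMIs. In this class the aged control was above the young CNV library, which was not so for Lcn2. The ratio of aged to young was 89.0 (40.6 to 244) in controls and 6.40 after laser, and the ratio of CNV to control was 28.6 (12.7 to 79.8) in young and 2.06 in aged mice. Shares of cells with a UMI were 1.48%, 16.2%, 34.5% and 67.5%, and 0%, 2.53%, 10.4% and 24.2% after thinning. The young control share rests on 5 cells, 4 with 1 UMI and 1 with 2.

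A2m also appeared in retinal neurons. Bipolar-like cells had 8.89, 58.1, 35.1 and 136 CPM, with laser ratios of 6.54 in young and 3.89 in aged mice. Different clusters made up this class: one of low depth led by Lrp1b and Neto1 was 216 of the 314 cells in young control, 51 of 208 in young CNV, 49 of 584 in the aged control and 41 of 1563 in aged CNV. Within 1 cluster, led by Lrrtm4 and Asic2 (67, 93, 275 and 565 cells), A2m was at 2.0 (1 UMI), 60.9, 38.6 and 192 CPM. A cluster led by Erbb4 and Slit2 was at 312 CPM in aged CNV, where 71.4% of 119 cells had a UMI. Amacrine-like cells of aged CNV had 102 CPM, but 66 of their 79 UMIs were in 1 cell, and those of aged control had 0 UMIs. Outside the classes of neurons, an unnamed cluster led by Pappa2 and Pgf was at 49.4, 72.6, 346 and 426 CPM, and so differed more by age than by laser. In a finer clustering (resolution 2.0) a cluster led by Pgf and Edn3 held 664, 639, 58 and 27 cells. One led by Brinp1 and Pappa2 held 16, 49, 435 and 356. The part of cell makeup in the age difference was not tested.

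In fibroblast-like cells A2m had the opposite order by age. The level was 52.9 CPM in young control, 60.7 CPM in young CNV, 12.8 CPM in the aged control and 6.06 CPM in aged CNV, an aged to young ratio of 0.242 in controls and 0.0998 after laser. Only 7.23%, 4.85%, 3.83% and 4.04% of the cells had a UMI, and the 5 highest cells held 412 of 552, 1056 of 1891, 24 of 29 and 16 of 40 UMIs. A cluster led by Angptl7 and Matn4, at 122, 257, 4.79 and 3.41 CPM, held 97.8% and 90.6% of the class's A2m UMIs in the young libraries and 13.8% and 10.0% in the aged ones. In the aged libraries a cluster led by Clec3b and Dpt held 82.8% and 80.0%. With cells picked by their own marker UMIs in place of clusters, the aged to young ratio was 2.81 in controls and 1.37 after laser. Of the cells so picked, 694 of 1779, 1994 of 3542, 233 of 1068 and 685 of 1440 were in the fibroblast-like class. The picks thus held different sets of cells, and the direction depended on which was used. Among macrophages, a cluster led by Lyz1 and Fcna in aged CNV had A2m at 625 CPM, with a UMI in 25 of 32 cells, while the whole class was at 2.03, 2.14, 3.50 and 52.8 CPM. This cluster held 239 of the 265 A2m UMIs and 77 of the 121 Lcn2 UMIs of the class in aged CNV. Its name depended on the clustering: at resolution 2.0, 24 of these 32 cells fell in a Müller-glia-like cluster and 8 stayed macrophage/monocyte-like. That cluster was led by Sele and A2m, and 79.2% of its cells had Ptprc, a leukocyte gene, so its name is uncertain too. Without the cluster, a setting chosen after the values were seen, A2m in aged CNV was at 5.60 CPM and Lcn2 at 9.48 CPM.

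**Figure D2:**
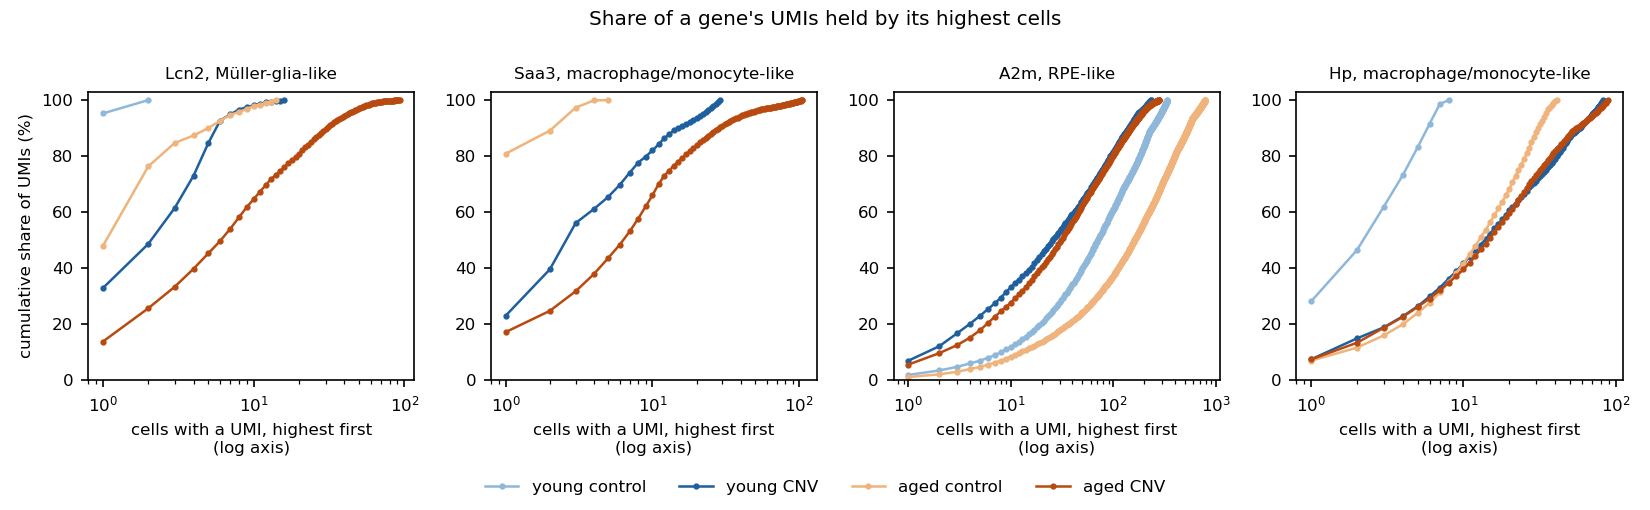
Cumulative share of a gene's UMIs (%) over the cells with a UMI, highest first (log axis), in the leading class of each gene. Each line is 1 library, and a library without UMIs has no line. In aged control 1 macrophage/monocyte-like cell held 786 of the 972 Saa3 UMIs. The highest RPE-like cell of aged CNV held 207 A2m UMIs.

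Saa3 was highest in macrophage/monocyte-like cells. It was at 0 CPM in young control (0 UMIs in 178 cells, which allows up to 2.50 CPM), 10.3 CPM (8.62 to 12.1) in young CNV, 567 CPM (532 to 604) in the aged control and 307 CPM (292 to 323) in aged CNV. The UMIs behind the other 3 levels were 139, 972 and 1542, in 1042, 161 and 530 cells. The aged libraries were far above the young ones, and the aged control was above the aged CNV. After laser the aged level was 29.9-fold (25.1 to 35.9) the young one. Taking 3 UMIs for young control in place of 0, the level was 5.04-fold higher after laser in young mice. On the same floor it was 279-fold higher in aged than in young controls. These ratios rest on an assumed floor and are not lower limits. The counting interval reached down to 4.05 for young mice after laser. The aged laser ratio was 0.542 (0.499 to 0.587).

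Single cells set the Saa3 level of the aged control. There 786 of the 972 UMIs were in 1 cell, 2 cells held 80 each, 1 held 25 and 1 held 1, and 156 cells held none. In aged CNV 105 of 530 cells had a UMI and the highest held 265, and in young CNV 29 of 1042 cells had one and the highest held 32. Without the highest cell of each library the levels were 0, 7.90, 110 and 255 CPM. The aged laser ratio turned from 0.542 to 2.32, and the age ratio in controls was 53.9 on the floor of 3 UMIs. After thinning these ratios were 0.954 and, on that floor, 14.8. The share of cells with a UMI gave the second order: 0%, 2.78%, 3.11% and 19.8%, and 0%, 0.486%, 3.27% and 8.77% after thinning, which kept 170, 1028, 153 and 513 cells. Thinned shares in rod-like cells were 0.0356%, 0.202%, 0% and 1.17%, so the young CNV share was near background. Without thinning they were 0.0278%, 0.512%, 0.0835% and 3.61%.

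Different macrophage clusters carried Saa3 at the 2 ages and conditions. In aged CNV a cluster led by Cd209d and Fcna held 1320 of the 1542 UMIs at 1144 CPM, with a UMI in 46.2% of its 119 cells, or 25.2% after thinning. The same cluster held 0 Saa3 UMIs in 12 cells of aged control, and the young libraries had no cell in it. In aged control a cluster led by Chil3 and Ly6c2 held 891 of the 972 UMIs at 1657 CPM, in 3 of 46 cells, and it was at 173 CPM in aged CNV. In young CNV a cluster led by Cd163 and F13a1 held 68 of the 139 UMIs at 25.0 CPM, and it was at 130 CPM in aged CNV. The Cd209d and Fcna cluster made up 7.45% of macrophage/monocyte-like cells in aged control and 22.5% in aged CNV, the Chil3 and Ly6c2 cluster 28.6% and 10.9%, and the Cd163 and F13a1 cluster 8.07% and 4.34%. The makeup of the class and the level of Saa3 within it therefore cannot be told apart at the level of the class.

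Outside this class Saa3 lay largely in single cells. Macrophage/monocyte-like cells held 46.0% of the library's Saa3 UMIs in young CNV, 79.5% in the aged control and 51.5% in aged CNV, and fibroblast-like cells 38.4%, 3.52% and 20.1%. Fibroblast-like cells had 0, 3.72, 19.0 and 91.3 CPM, with 102 of 116, 40 of 43 and 440 of 603 UMIs in 1 cell of young CNV, aged control and aged CNV. Without its highest cell the aged CNV level was 24.7 CPM. Microglia-like cells of aged CNV held 216 UMIs, 209 of them in 1 of 38 cells. Unnamed clusters led by Pappa2 and Pgf (75.7 CPM in aged CNV) and by Adamtsl3 and Chil1 (28.8 CPM in aged control, 17.6 CPM in aged CNV) also held the gene. Over all cells Saa3 was at 0.0451, 2.82, 25.7 and 46.5 CPM, from 3, 302, 1223 and 2995 UMIs.

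By its mean over the 4 libraries, Hp was highest in macrophage/monocyte-like cells among the classes with enough cells in each library, and it was lower there after laser at both ages. In both CNV libraries it was higher in fibroblast-like cells, given below. The level was 48.1 CPM (37.6 to 60.7) in young control, 18.7 CPM (16.5 to 21.2) in young CNV, 175 CPM (156 to 196) in the aged control and 66.9 CPM (59.9 to 74.5) in aged CNV, from 71, 254, 300 and 336 UMIs. Each control was above the CNV library of its age, and each aged library above the young one. The ratio of CNV to control was 0.389 (0.298 to 0.514) for young mice and 0.382 (0.326 to 0.448) for aged ones, and the aged to young ratio was 3.63 in controls and 3.57 after laser, the latter 5.88 after thinning. Cells with a UMI made up 4.49%, 7.97%, 25.5% and 16.8%, and 3.53%, 1.26%, 13.7% and 6.24% after thinning. In rod-like cells the thinned shares were 0%, 0.121%, 0.0873% and 0.730%, and the unthinned ones 0.0833%, 0.256%, 0.167% and 1.74%.

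The Chil3 and Ly6c2 cluster held most Hp UMIs of the class in 3 of the 4 libraries. It held 71 of 71 UMIs in young control, 38 of 254 in young CNV, 300 of 300 in the aged control and 276 of 336 in aged CNV. Within it Hp was at 862, 319, 558 and 645 CPM, from 8, 11, 46 and 58 cells in the same order. In aged mice the cluster's level was thus not lower after laser, while that of the class was. In controls the cluster's level was not higher in aged than in young mice, while that of the class was. No ratio was computed for the cluster, since both controls and young CNV held under 50 of its cells. No rise or fall is read from these levels. This cluster was 4.49%, 1.06%, 28.6% and 10.9% of the class in young control, young CNV and the aged control and CNV libraries. Its share was lower after laser at both ages and higher in aged than in young mice. The makeup of the class and the level of Hp within it therefore cannot be told apart at the level of the class, for laser or for age. In young CNV a cluster led by Spp1 and Gpnmb held 136 of the 254 UMIs. An unnamed myeloid cluster led by Adgre4 and Treml4 had 314 and 362 CPM in aged control and aged CNV.

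Neutrophil-like cells had higher Hp levels than macrophages, at 1350.0 CPM in 28 cells of aged control and 336 CPM in 204 cells of aged CNV, a ratio of 0.249. A UMI was found in 92.9% and 23.5% of them. As for Lcn2, the S100a9 and Retnlg cluster differed less, at 1421 and 1649 CPM (ratio 1.16), and the Il1r2 and S100a8 cluster was at 144 CPM in aged CNV. In the S100a9 and Retnlg cluster every cell with Lcn2 also had Hp, 18 of 18 in aged control and 13 of 13 in aged CNV. Hp was in 24 of the 26 cells of this cluster in aged control (92.3%) and in 21 of 21 in aged CNV, so nearly any cell with Lcn2 had to have Hp too.

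**Figure D3:**
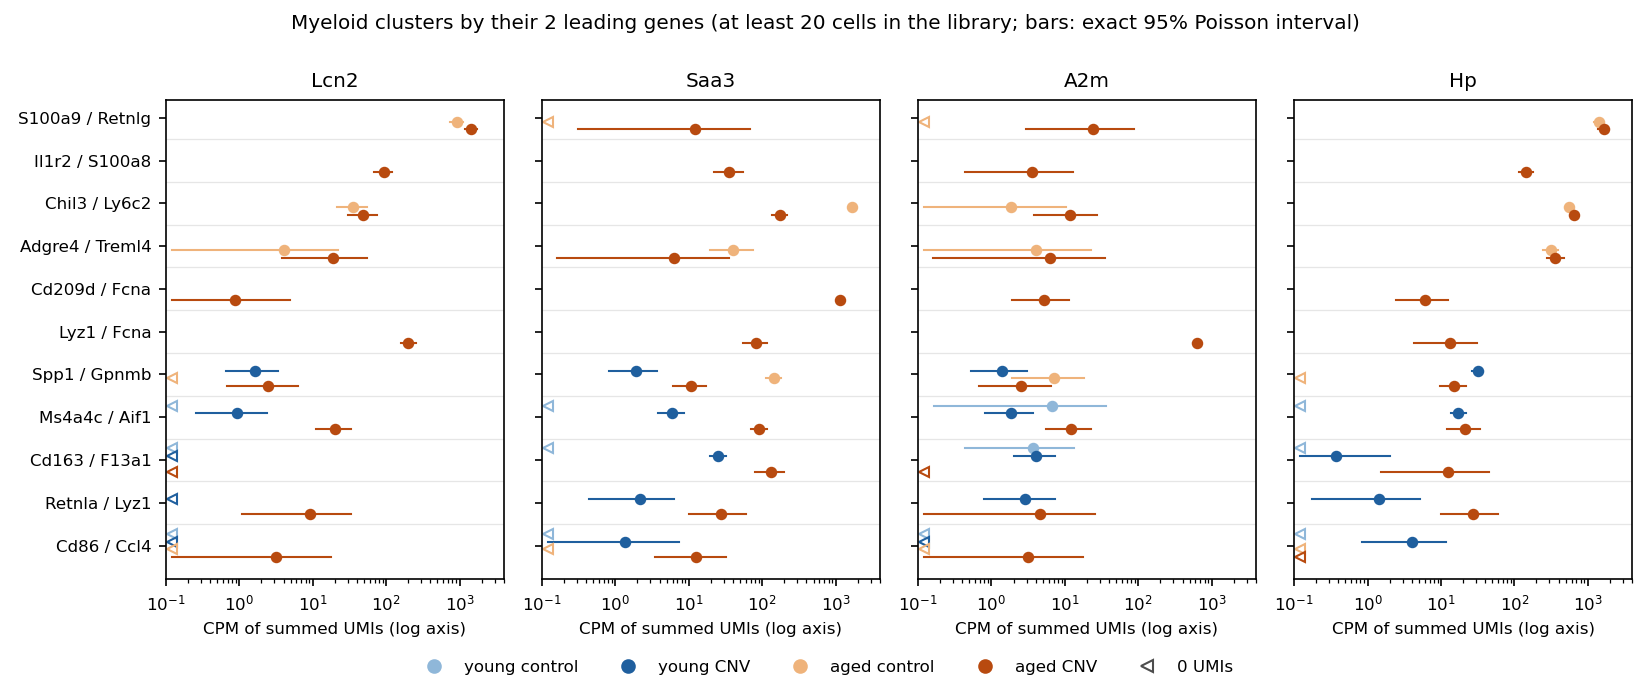
CPM (log axis) of the 4 genes in myeloid clusters named by their leading genes, for libraries with at least 20 cells of the cluster, with exact 95% Poisson intervals; bars that pass the axis edge run off it and open triangles mark 0 UMIs. Hp is highest in the S100a9 and Retnlg cluster (1421 and 1649 CPM), and Saa3 in the Chil3 and Ly6c2 cluster of aged control (1657 CPM) and the Cd209d and Fcna cluster of aged CNV (1144 CPM).

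Most Hp UMIs of the aged CNV library came from none of the named classes. An unnamed cluster led by Cfd and Car3, with Adipoq and Retn, genes known from fat cells, among its leading genes, held 46 cells of aged CNV and 1 of young CNV. All 46 cells had Hp, at 7774 CPM, and their 5544 UMIs were 75.5% of the library's Hp. The 1 cell of young CNV held 749 UMIs, 41.2% of that library's Hp. Over all cells Hp was at 2.33, 17.0, 14.1 and 114 CPM, with laser ratios of 7.29 in young and 8.10 in aged mice. Without this cluster the ratios were 4.29 and 2.01, a setting chosen after the values were seen.

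Fibroblast-like cells were the second class for Hp. The level was 2.97 CPM in young control, 22.0 CPM in young CNV, 19.9 CPM in the aged control and 119 CPM in aged CNV. The ratio of CNV to control was 7.40 in young and 5.98 in aged mice, the opposite direction to macrophage/monocyte-like cells. A cluster led by Clec3b and Dpt had the highest levels, 6.43, 31.6, 33.0 and 170.0 CPM. Endothelial-like cells had 0.597, 1.72, 0 and 9.63 CPM.

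Counts of members past 2-fold were read beside all genes with at least 20 UMIs over both libraries. In Müller-glia-like cells Lcn2 and A2m, the 2 members measured, were both at least 2-fold higher after laser at each age, as were 3.57% of 12040 genes in young and 8.0% of 13296 in aged mice. In RPE-like cells 1 of 1 measured member was higher in young mice (background 4.41%) and 2 of 2 in aged mice (4.95%). In macrophage/monocyte-like cells 1 of 3 was higher and 1 lower in young mice (6.73% and 8.53%), and 2 of 4 were higher and 1 lower in aged mice (10.4% and 3.92%). The 2 higher in aged mice were Lcn2 and A2m, and without the Lyz1 and Fcna cluster neither was past 2-fold (0.813 and 1.60). The Lcn2 ratio was also below 1 at resolution 2.0 (0.793) and with cells picked by their own UMIs (0.654). In fibroblast-like cells 2 of 4 were higher in young mice (4.22%), and 3 were higher and 1 lower in aged mice (6.21% and 3.97%). The genes were chosen on these contrasts, so nothing is read from these counts.

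The ratios for age were counted in the same way. In aged against young controls, 2 of 2 measured members were higher in Müller-glia-like cells (background 6.3%). In RPE-like cells it was 1 of 2 (10.3%), where Lcn2 was higher on 33 against 1 UMI and A2m was just under 2-fold. In macrophage/monocyte-like cells 3 of 3 were higher (9.66%), with Lcn2 5.73-fold higher on a floor of 3 UMIs for young control. The Hp of that class lay in 1 cluster in both controls, and the cluster's share of the class differed by age, as given above. In fibroblast-like cells 3 were higher (6.96%) and A2m was lower (6.39%). In aged against young mice after laser, 2 of 2 were higher in Müller-glia-like cells (10.8%), 2 of 2 in RPE-like cells (11.7%) and 4 of 4 in macrophage/monocyte-like cells (14.6%). In fibroblast-like cells 3 of 4 were higher (11.5%) and A2m was lower (5.65%).

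Other acute-phase genes were followed from a list of 30, of which 26 were in the matrix. In Müller-glia-like cells 6 of 7 measured members were at least 2-fold higher after laser in young mice, beside 3.57% of all genes. Their median log2 ratio was 3.83 against -0.08 over all genes. In aged mice it was 9 of 12, beside 8.0% of all genes, with a median of 2.97 against 0.01. After thinning fewer genes reached 20 UMIs, and the counts were 2 of 3 and 5 of 6. The highest in young mice were Timp1, an inhibitor of matrix proteases (83.4-fold), the serpin Serpina3n (44.4), complement C3 (21.6) and the metalloreductase Steap4 (14.2). In aged mice they were Timp1 (35.1), the secreted glycoprotein Lrg1 (21.2), C3 (20.9) and Lbp, which binds bacterial lipopolysaccharide (11.9). The list was drawn up with results of these libraries known, so this is no independent support.

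In RPE-like cells 6 of 10 measured genes of that list were higher and 1 lower after laser in young mice. Of all genes 4.41% were higher and 3.18% lower. The list's median log2 ratio was 1.88 against -0.04 over all genes. In aged mice 6 of 9 were higher, beside 4.95% of all genes, with a median of 1.85 against -0.01. Serpina3n was 50.5-fold higher in young and 178-fold higher in aged mice. In macrophage/monocyte-like cells 1 of 12 was higher and 1 lower in young mice, near the shares of all genes (6.73% and 8.53%). In aged mice 6 of 12 were higher, beside 10.4% of all genes. The list thus had more genes past 2-fold in glia and RPE than in macrophages of young mice, a difference that was not tested.

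Genes of cytokine receptors and their signalling had lower median ratios than the acute-phase list. In Müller-glia-like cells 12 of 22 measured genes were at least 2-fold higher in young mice (median log2 ratio 1.06), beside 3.57% of all genes. In aged mice it was 10 of 23 (0.77), beside 8.0%. Bcl3, a regulator of NF-kB dimers, led at both ages (13.1 and 11.6). Socs3, a feedback inhibitor induced by STAT3, was 4.16-fold higher in young and 8.92-fold in aged mice. Cebpb was 3.23-fold higher in young mice, and Cebpd 4.22-fold in aged mice; both belong to the family whose pattern was searched in the promoters. In RPE-like cells 3 of 21 and 6 of 22 were higher, beside 4.41% and 4.95% of all genes.

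Of 13 inducing cytokines, 3 in young and 5 in aged mice reached 20 UMIs in Müller-glia-like cells, 2 at each age in RPE-like cells and 7 at each age in macrophage/monocyte-like cells. In Müller-glia-like cells 1 of 3 was higher in young mice and 3 of 5 in aged mice, beside 3.57% and 8.0% of all genes. Cntf, a gp130 cytokine, was at 18.4, 99.7, 38.9 and 118 CPM in these cells. Il1b was at 0.357 CPM in aged control and 26.7 CPM in aged CNV Müller-glia-like cells, against 9133 and 4706 CPM in neutrophil-like cells. Macrophage/monocyte-like cells had Il1b at 384, 164, 463 and 211 CPM, lower after laser at both ages. Both of these myeloid classes differed in their clusters between control and CNV, as given above, and the part of this in the Il1b levels was not tested. Il6 was highest in fibroblast-like cells, at 74.8, 101, 60.0 and 181 CPM.

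Few receptors of the 4 proteins passed 2-fold, as was so for all genes. Of 10 listed, 0 of 4 measured in young and 0 of 6 in aged mice were past 2-fold in Müller-glia-like cells. Of all genes there, 3.57% were higher and 4.31% lower in young mice, and 8.0% and 2.55% in aged mice. In RPE-like cells it was 1 of 5 and 0 of 6. Of all genes there, 4.41% were higher and 3.18% lower in young mice, and 4.95% and 3.15% in aged mice. Nothing is read from counts of so few genes. Lrp2, an endocytic receptor that takes up lipocalin 2, was at 98.2, 90.2, 200.1 and 146 CPM in RPE-like cells. Lrp1, which clears alpha-2-macroglobulin with bound protease, was at 679, 719, 919 and 824 CPM in fibroblast-like cells. Cd163, which takes up haptoglobin bound to haemoglobin, was at 578, 363, 290 and 399 CPM in macrophage/monocyte-like cells. Fpr2, a receptor for serum amyloid A, was at 213 and 134 CPM in the S100a9 and Retnlg cluster of aged control and aged CNV.

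Of the A2m family, 2 of 4 listed genes were in the matrix. Pzp, the closest of them, was at 5.93, 4.30, 6.29 and 3.20 CPM in bipolar-like cells, and reads of near copies may have been split by the counting. Cd109 was at 41.1, 44.2, 106 and 71.5 CPM in fibroblast-like cells. Of 12 neutrophil granule genes, 6 were measured in aged neutrophil-like cells, of which 2 were higher and 4 lower after laser, beside 36.0% and 11.3% of all genes. Chil3 was at 16.7 CPM in aged control and 462 CPM in aged CNV, Mmp8 at 400.0 and 52.8 CPM, and S100a9 at 42520 and 7736 CPM. In the S100a9 and Retnlg cluster 0 of 4 were past 2-fold, beside 9.12% of all genes higher and 9.17% lower.

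Lcn2 and A2m often met in the same Müller-glia-like cells. In aged CNV 76 of the 93 cells with Lcn2 (81.7%) also had A2m, which is 37.3% of the 204 cells with A2m. In young CNV 12 of 16 and in aged control 12 of 14 cells with Lcn2 had A2m, or 75.0% and 85.7%. Among all Müller-glia-like cells the shares with A2m were 67.5%, 16.2% and 34.5% in those 3 libraries, and cells of higher depth are more likely to show both. In aged CNV macrophage/monocyte-like cells 14 of the 105 cells with Saa3 (13.3%) had Hp, near the 16.8% of all cells of the class.

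The genes whose level was most like each member's were found by the Pearson correlation of log2(CPM + 5) over 54 class and library sums, among 10443 genes that reached 50 CPM. The sums of 1 library share their cells' depth and free RNA, so these are descriptions. For Lcn2 they were Hsd17b2 (0.662), Mapk13 (0.647), Olfm4 (0.626), Necab2 (0.614) and Por (0.605). For Saa3 they were Hp (0.816), Mmp12 (0.8), Cxcl13 (0.775), Chil3 (0.752) and Mmp8 (0.744), and for Hp Chil3 (0.829), Slpi (0.822), Mmp9 (0.822), Saa3 (0.816) and Emilin2 (0.809). For A2m they were Sat2 (0.81), Adra2c (0.78), Rdh10 (0.777), Tmem56 (0.777) and Bsg (0.763). Among the members themselves, Saa3 with Hp was the only pair above 0.5, since Lcn2 with A2m gave 0.315, Lcn2 with Hp 0.304, Lcn2 with Saa3 0.256, Saa3 with A2m 0.0166 and A2m with Hp -0.0374.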

How the data were processed

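The authors deposited raw UMI counts for 24783 genes in 36701 cells. The start of each cell's column name gave its library (y read as young, e as aged), and 0 columns stayed unmapped. The submitters' processing notes name Cell Ranger, Seurat 4.1.1 and the build mm10, and the version of Cell Ranger is not given in the sources used here. Per the labels' protocols, papain was used on each tissue apart, the cells passed a 40 µm mesh, and retina and choroid were then joined at 200 cells per µL for 10x Genomics droplets.

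The 4 genes and all gene and marker lists were chosen with earlier results of these data known. Scrublet in scanpy 1.11.5 scored doublets per library. Its automatic threshold called 1 cell in young control, so a score of 0.2 was used, which removed 276, 303, 245 and 276 cells (young control and CNV, then aged control and CNV). Libraries were clustered together without the members and list genes (86 genes left out), using 2000 variable genes, 40 principal components, 20 neighbours and Leiden resolution 1.0 (leidenalg 0.10.2, igraph 0.11.9). Where at least 30% of a cluster's cells had Ptprc, its cells entered a second clustering, which gave 25 leukocyte clusters. A cluster took the class of its markers; 3 clusters whose best marker score was below 0, led by Adamtsl3 and Chil1, by Pappa2 and Pgf and by Plcxd3 and Tfap2b, were left unnamed after they were seen.

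UMIs were summed per class and library with at least 50 cells (20 for neutrophil-like and NK-like cells). Ratios needed 20 UMIs over both libraries. Against 0 UMIs a ratio was computed from a floor of 3 counts per library, and is left out where that floor passes the other level. Such a ratio is not a lower limit, since 0 UMIs also allow a level above the floor. The leading class of a gene was the named class with the highest mean CPM among those with enough cells in all 4 libraries, which leaves out neutrophil-like cells. From the lists (other acute-phase genes, inducing cytokines, cytokine receptors and signal genes, receptors of the proteins, A2m family, neutrophil granule genes), up to 4 measured genes with the largest log2 ratio were named per class and contrast, and any member of the receptor, family and cytokine lists could be given. The alternatives were trimmed-mean scaling (edgeR 4.0.16, R 4.3.3), thinning to 1000 UMIs, doublets kept, resolution 2.0, cells with S100a8 or S100a9 left out, the highest cell left out, and cells picked by their own markers. Only the ratio, its interval and the 2-fold rule were tested on simulated data. The simulated Poisson counts left out the gathering of UMIs in few cells. Python 3.11.15, numpy 2.4.6, scipy 1.17.1 and pandas 2.3.3 were used. The values of 1 listed gene are not reported here.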

Additional observations from a re-analysis of the deposited data

Results flagged for a closer look

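In 6 comparisons the ratio after laser lay on opposite sides of 1 in young and aged mice. With 1 library per group, none of these differences was tested. A2m in fibroblast-like cells was at 1.15 of control after laser in young and 0.473 in aged mice (2.18 when thinned, 1.32 with doublets kept), and in the fibroblast-like cluster led by Clec3b and Dpt at 5.46 and 0.374. In that cluster 1 cell held 129 of the 170 UMIs of young CNV and 1 cell 16 of the 24 of aged control, and without the highest cell of each library A2m was at 1.04 and 1.91 CPM in the young and 6.41 and 5.76 CPM in the aged libraries (control, then CNV). In the unnamed cluster led by Adamtsl3 and Chil1 the A2m ratio was 0.337 in young and 1.84 in aged mice. The Lcn2 ratio in endothelial-like cells was 0.702 and 3.53, and in their larger cluster, led by Plvap and Cldn5, 0.764 and 3.69. The Saa3 ratio in macrophage/monocyte-like cells was 5.04 in young mice, on the floor of 3 UMIs for the control. It was 0.542 in aged mice, where 1 cell of aged control held 80.9% of the UMIs.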

How the results depend on the processing

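For 18 results, the 16 ratios in the leading classes and 2 counts of list genes, the alternatives gave 117 values. Of these, 86 were close to the reported ones, 30 moved and 1 turned direction. A ratio moved when it left the counting interval, and a count when it changed by more than a fixed fold. Without the highest cell of each library, the Saa3 ratio was 2.32 in aged mice after laser (from 0.542). On the floor of 3 UMIs it was 3.88 in young mice after laser and 53.9 for age in controls. In the same setting the Lcn2 ratio was 650.5 and 38.5 after laser (young, aged) and 91.9 and 5.43 for age (controls, after laser). Thinning gave Lcn2 17.6 and 6.76 for age, and A2m 1.81 and 4.38 after laser and 1.82 and 4.39 for age. It gave Saa3 0.954 in aged mice after laser, and 14.8 (controls, on the floor) and 23.3 (after laser) for age. It gave Hp 0.525 in aged mice after laser and 5.88 for age after laser. After thinning the list counts were 2 in young and 5 in aged mice. Trimmed-mean scaling gave A2m 3.75 in aged mice after laser and 1.70 and 3.12 for age, and, for age after laser, Saa3 23.7 and Hp 2.83. With cells picked by their own UMIs Lcn2 was 15.2 in young mice after laser and 2.76 for age in controls. Saa3 was 0.606 in aged mice after laser with doublets kept. Without cells that had S100a8 or S100a9, Saa3 was 38.5 for age after laser, and Hp 0.471 in aged mice after laser and 2.61 for age in controls. The cause of these changes was not tested.

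Among 559 values of 84 ratios outside the leading classes, 444 were close to the reported ones, 102 moved and 13 turned direction. For A2m in fibroblast-like cells the values that turned were 2.18 (thinned) and 1.32 (doublets kept) in aged mice after laser. With own UMIs they were 2.81 and 1.37 for age (controls, after laser). With doublets kept, the class also held a cluster led by Myoc and Chil1 (520, 719, 561 and 493 cells). Own UMIs picked many cells outside the class. For A2m in pericyte-like cells they were 0.801 for age in controls (resolution 2.0) and, for age after laser, 1.62 (highest cell left out) and 2.56 (own UMIs). The others were A2m with own UMIs in cone-like cells for age after laser (0.0651) and in rod-like cells in young mice after laser (0.532) and for age in controls (0.784), Lcn2 in bipolar-like cells for age after laser (2.76, highest cell left out), and Lcn2 in aged macrophage/monocyte-like cells after laser (0.793 at resolution 2.0, 0.654 with own UMIs). The Saa3 ratio in young mice after laser gave no value when thinned, since the control stood at 0 UMIs. No paired analysis was possible because each group had 1 library. Shares near the rod-like background were not detectable above free RNA at this depth.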
